A study of Mus musculus with 36 samples.

Results

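The genes described here are 41 genes of transforming growth factor beta (TGFβ) and bone morphogenetic protein (BMP) signaling, chosen by name from the 55487 genes of the count table. They were measured by bulk RNA-seq in 36 libraries from C57BL/6 mice of 2 to 4 months of age. From each mouse came the unmyelinated optic nerve head (UON), the first myelinated stretch of the optic nerve (MON) and the whole retina, and the myelin transition zone between UON and MON was discarded. The 6 groups of each tissue were naïve mice, mice 3 days (3D) or 2 weeks (2W) after crush of 1 optic nerve, and mice 3D, 2W or 6 weeks (6W) after injection of microbeads into 1 anterior chamber, an ocular hypertension model that the labels call glaucoma. Each of the 18 groups held 1 library of RNA pooled from 2 females and 1 of RNA pooled from 2 males, which gave n = 2 pools. Tests therefore measure only the spread between these pools, and a difference between the pools of a group is a difference between mice, sexes and libraries at once. Naïve tissue came from mice with both eyes untreated. Crush was made on the nerve itself and the retina was affected through its axons, whereas beads were placed in the eye.

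TGFβ ligands leave the cell bound in a latent complex, which latent TGFβ binding proteins anchor to the extracellular matrix, and the freed ligand acts on a pair of type I and type II receptors. Activated type I receptors of the TGFβ and activin branch phosphorylate SMAD2 and SMAD3, those of the BMP branch phosphorylate SMAD1, SMAD5 and SMAD9, and both sets enter the nucleus with SMAD4. SMAD6 and SMAD7 are inhibitory SMADs, SKIL is a nuclear corepressor, and the ID genes encode inhibitors of basic helix-loop-helix transcription factors and are classical targets of BMP signaling. In the optic nerve head this pathway is known from work on glaucoma, where TGFβ2 is linked to astrocytes and to remodeling of extracellular matrix.

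The libraries held 16.2 M to 78.1 M estimated counts. Summed markers of astrocytes (7 genes) were at 17000 to 29400 counts per M counts (CPM) in UON, 7480 to 23900 in MON and 987 to 1550 in retina. Oligodendrocyte markers (6 genes) were at 3260 to 43500 CPM in UON and 46700 to 165000 in MON, and photoreceptor markers (6 genes) were at 50700 to 63500 CPM in retina and at most 336 in the nerve. UON is labelled as unmyelinated, yet in naïve UON the oligodendrocyte markers (28720 and 21910 CPM) were about level with the astrocyte markers (23490 and 27610 CPM), and the part of this in the results was not tested. UON also carried the most of the 8 fibroblast markers of meninges and sclera (1470 to 5740 CPM, against 286 to 1470 in MON and 12.1 to 38.1 in retina). The male UON pool at 2W after crush stood apart, with oligodendrocyte markers at 3263 CPM where the other 11 UON libraries held 9978 to 43470. In bulk tissue, fewer cells of a type and less RNA per cell cannot be told apart.

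The start regions of Tgfb2, the most abundant member in naïve UON, and of Id2, Id3 and Id4, which were higher in both nerve regions than in retina, are shown as the start regions of an abundant ligand and of classical targets of the pathway. Each run is the 250 bases before the RefSeq start on the strand of the gene (build GRCm38.p6), and capitals mark CAGAC or its complement GTCTG, the core of the element that SMAD3 and SMAD4 bind, and GGCGCC, a GC-rich element of BMP-regulated SMADs.
Tgfb2, chr1:186705990-186706239, minus strand: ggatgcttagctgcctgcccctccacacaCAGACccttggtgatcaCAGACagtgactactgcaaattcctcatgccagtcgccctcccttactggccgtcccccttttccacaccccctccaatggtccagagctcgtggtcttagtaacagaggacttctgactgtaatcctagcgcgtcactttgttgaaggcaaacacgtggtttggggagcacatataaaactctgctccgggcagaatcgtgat
Id2, chr12:25096093-25096342, minus strand: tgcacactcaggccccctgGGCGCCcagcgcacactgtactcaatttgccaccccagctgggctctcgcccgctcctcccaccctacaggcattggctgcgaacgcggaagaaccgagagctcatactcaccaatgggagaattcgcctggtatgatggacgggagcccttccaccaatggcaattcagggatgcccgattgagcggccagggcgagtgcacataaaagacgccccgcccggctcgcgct
Id3, chr4:136143572-136143821, plus strand: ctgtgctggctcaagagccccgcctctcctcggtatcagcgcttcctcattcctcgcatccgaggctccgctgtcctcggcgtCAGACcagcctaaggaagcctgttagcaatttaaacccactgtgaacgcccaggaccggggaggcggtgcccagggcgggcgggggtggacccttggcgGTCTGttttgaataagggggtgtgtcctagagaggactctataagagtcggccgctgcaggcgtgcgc
Id4, chr13:48260866-48261115, plus strand: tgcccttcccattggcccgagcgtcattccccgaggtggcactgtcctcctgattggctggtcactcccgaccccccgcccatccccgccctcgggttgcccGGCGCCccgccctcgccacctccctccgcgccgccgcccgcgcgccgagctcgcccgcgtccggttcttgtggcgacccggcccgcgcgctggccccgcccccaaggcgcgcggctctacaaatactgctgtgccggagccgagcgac
The Tgfb2 window held CAGAC at 2 places and that of Id3 held it once on each strand, while Id2 and Id4 each held a single GGCGCC. Promoters of 28 of the 41 members were matched, with 36 windows in all because some genes have several starts. CAGAC or GTCTG lay in 15 of these 36 windows (41.7%) and in 42.2% of all 32851 RefSeq windows, and GGCGCC in 11 of 36 (30.6%) against 9.59% of all. These matches describe letters and are not measured binding sites.

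In the GRCm38 annotation the gene bodies with the main differences lay as follows, on the strand given: Tgfb2 at chr1:186622792-186705989 (minus strand), Ltbp1 at chr17:75005568-75392512 (plus strand), Bmp7 at chr2:172868012-172940321 (minus strand), Tgfbr1 at chr4:47353222-47414931 (plus strand), Tgfbr2 at chr9:116084293-116175360 (minus strand), Ltbp2 at chr12:84783212-84876532 (minus strand), Inhba at chr13:16011851-16031621 (plus strand) and Skil at chr3:31095058-31122577 (plus strand). Counts are per whole gene, over exons. Exons of Tgfb2, Tgfb3, Bmp5, Ltbp2 and Id4 share bases with a gene on the opposite strand, 46.7% of the exon bases in Bmp5 and at most 9.34% with any single gene in the others, and with the use of strand not given their reads cannot be told apart.

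On the per-length scale of the deposited FPKM (fragments per kilobase of transcript per M fragments), levels can be compared between genes. Tgfb2, a secreted TGFβ ligand, was the highest of the 41 in naïve UON at 236 FPKM in the female pool and 244 in the male pool. Id3 followed at 195 and 255 FPKM, then Ltbp1, which binds latent TGFβ to matrix, at 120 and 109. In naïve MON the order was led by Id3 (303 and 322 FPKM), Id2 (62.9 and 71.1) and Id1 (49.5 and 65.8), and Tgfb2 ranked 4 at 49.9 and 43.7. In naïve retina Id3 was again first at a lower level of 32.3 and 27.6 FPKM, followed by Id2 at 18.0 and 18.3 and the BMP receptor Bmpr1a at 14.6 and 18.4. Tgfb1 ranked 34 of 41 in UON, at 0.579 and 0.871 FPKM, and last in retina, at 0.0218 and 0.0546. The secreted antagonists Fst, Nog and Grem1 stayed under 1 FPKM in every naïve library.

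**Figure D1:**
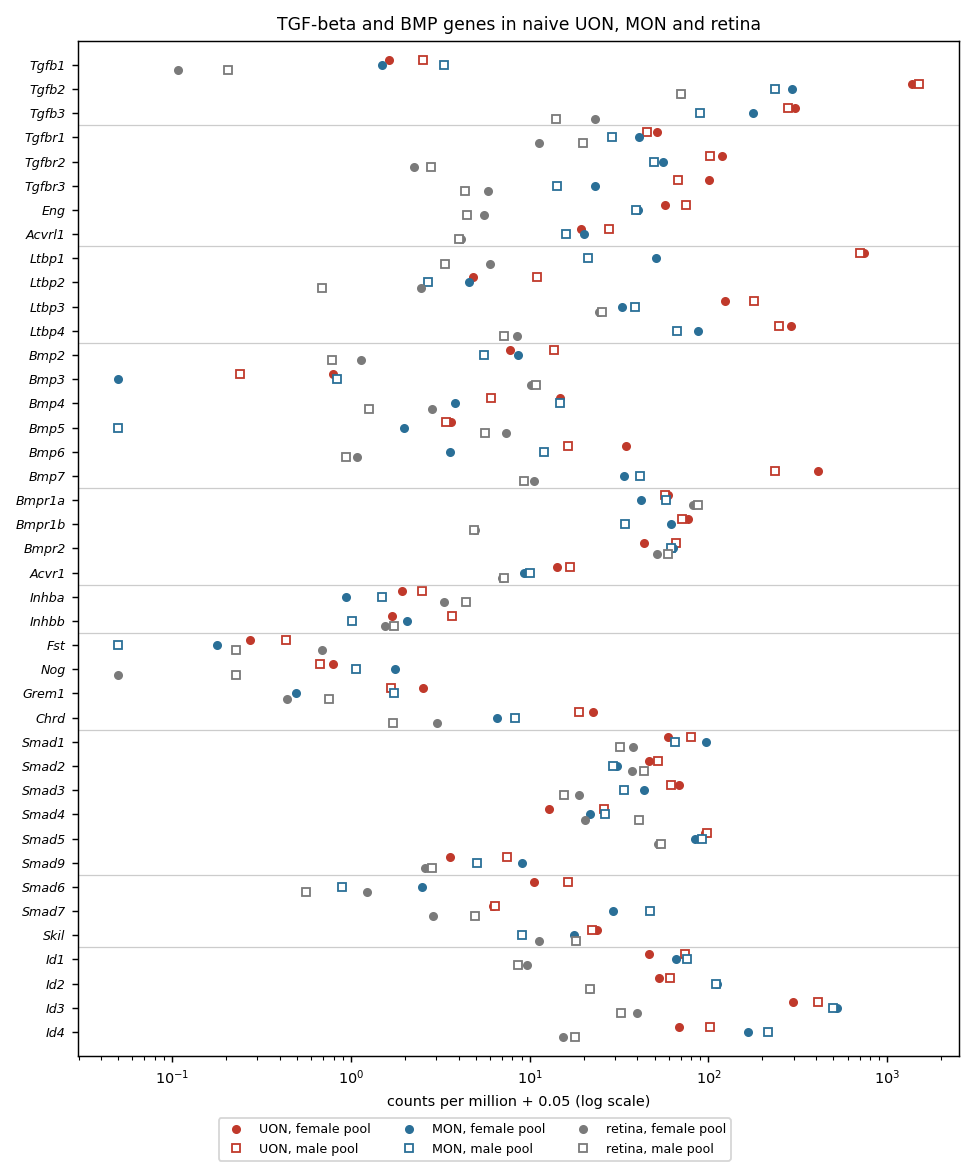
Level of each of the 41 members in the 6 naïve libraries, in CPM plus 0.05 on a log axis. Filled circles are female pools and open squares male pools, with UON in red, MON in blue and retina in grey, and grey lines separate the roles. Tgfb2, Ltbp1 and Bmp7 are at the right in UON, and retina lies to the left for the TGFβ ligands and receptors and the ID genes.

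The first comparison asked which of these genes differ between the unmyelinated and myelinated nerve of naïve mice. A gene was called where its adjusted p was under 0.05 and its log2 fold change was beyond 1, and 12 of the 41 members were called where 9.63% of the 23685 genes tested were called. Higher in UON were 9 members (background 4.83%): the ligands Tgfb2, Tgfb3 and Bmp7, the receptors Tgfbr2 and Tgfbr3, the latent TGFβ binding proteins Ltbp1, Ltbp3 and Ltbp4, and the inhibitory Smad6. Lower in UON were 3 (background 4.80%): the inhibitory Smad7 and the targets Id2 and Id4. The median log2 difference of the 41 was 0.688, against -0.0616 over all genes tested, and 30 of 41 estimates were above 0. The test was edgeR's quasi-likelihood test on the 6 naïve libraries, and adjusted p-values below are Benjamini-Hochberg values over all genes tested.

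Among the latent TGFβ binding proteins, Ltbp1 was at 742 and 707 CPM in the female and male UON pool and at 50.8 and 21.2 CPM in MON, the largest difference of any member. It was 21.6-fold higher in UON (log2 4.43, SE 0.34, adjusted p = 0.00139). Ltbp4 was at 290 and 247 CPM in UON and 86.8 and 66.8 in MON (log2 1.77, SE 0.20, adjusted p = 0.00297), and Ltbp3 at 123 and 181 against 32.7 and 38.8 (log2 2.03, SE 0.22, adjusted p = 0.00266). UON and MON pools did not overlap for any of these. The remaining gene of the family, Ltbp2, was low in both regions, at 4.75 and 10.99 CPM in UON and 4.54 and 2.65 in MON, and did not pass (adjusted p = 0.400).

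Among the 3 TGFβ ligands, Tgfb2 and Tgfb3 were called. Tgfb2 was at 1383 and 1512 CPM in UON and 295 and 235 in MON, 5.35-fold higher in UON (log2 2.42, SE 0.24, adjusted p = 0.00220). Tgfb3, the related ligand, was at 306 and 279 CPM in UON and 177 and 89.2 in MON (log2 1.19, SE 0.25, adjusted p = 0.0281). The male MON pool was the lower of its pair for both. Tgfb1, the ligand best known from immune cells and injury, was near the floor in both regions, at 1.59 and 2.48 CPM in UON and 1.43 and 3.25 in MON, with overlapping pools (adjusted p = 0.952).

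Of the 6 BMP ligands only Bmp7 passed the edgeR test. It was at 410 and 235 CPM in UON and 33.8 and 41.4 in MON, 8.12-fold higher in UON (log2 3.02, SE 0.32, adjusted p = 0.00251). Bmp6 was at 34.5 and 16.3 CPM against 3.52 and 11.96 (log2 1.75, SE 0.70, adjusted p = 0.178). Bmp2 and Bmp4 overlapped between the regions, and Bmp3 and Bmp5 were under 4 CPM in each nerve pool. The BMP antagonist Chrd was at 22.4 and 18.7 CPM in UON and 6.51 and 8.18 in MON (log2 1.43, SE 0.41, adjusted p = 0.0763), and neither it nor Fst, Nog or Grem1 passed by edgeR. These results depended on the tool for Bmp6 and Chrd, which DESeq2 called higher in UON (adjusted p = 0.0322 and 0.00772).

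Of the 5 TGFβ receptor genes 2 were called. Tgfbr3 encodes betaglycan, the coreceptor that presents TGFβ2 to the signaling receptors, and it was at 100 and 67.4 CPM in UON and 23.2 and 14.1 in MON (log2 2.14, SE 0.22, adjusted p = 0.00247). Tgfbr2, the type II receptor, was at 119 and 102 CPM against 55.4 and 49.8 (log2 1.04, SE 0.22, adjusted p = 0.0308), close to the limit of 1. The type I receptor Tgfbr1 was at 51.2 and 45.5 CPM against 40.9 and 28.8 and did not pass (adjusted p = 0.489), nor did the endothelial receptors Eng and Acvrl1. None of the 4 BMP receptor genes was called, and Bmpr2 had a log2 difference of -0.25 (SE 0.22).

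The inhibitory SMADs went in opposite directions. Smad6, which mainly restrains BMP receptors, was at 10.5 and 16.3 CPM in UON and 2.44 and 0.842 in MON (log2 3.19, SE 0.68, adjusted p = 0.0295). Smad7, which restrains TGFβ and BMP receptors, was at 6.21 and 6.33 CPM in UON and 29.2 and 47.0 in MON, 6.00-fold lower in UON (log2 -2.58, SE 0.34, adjusted p = 0.00491). The pools of UON and MON did not overlap for either gene. None of the receptor-activated SMADs or Smad4 was called, with log2 differences from -0.45 to 0.73 over the 6 genes.

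The ID genes were lower in UON where they differed. Id4 was at 68.0 and 102 CPM in UON and 166 and 216 in MON (log2 -1.22, SE 0.20, adjusted p = 0.0123). Id2 was at 52.5 and 60.5 CPM against 112 and 110 (log2 -1.01, SE 0.20, adjusted p = 0.0209), at the limit of 1. Id3, the most abundant, was at 297 and 411 CPM against 522 and 496 (log2 -0.57, SE 0.24, adjusted p = 0.213), and Id1 overlapped between the regions.

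**Figure D2:**
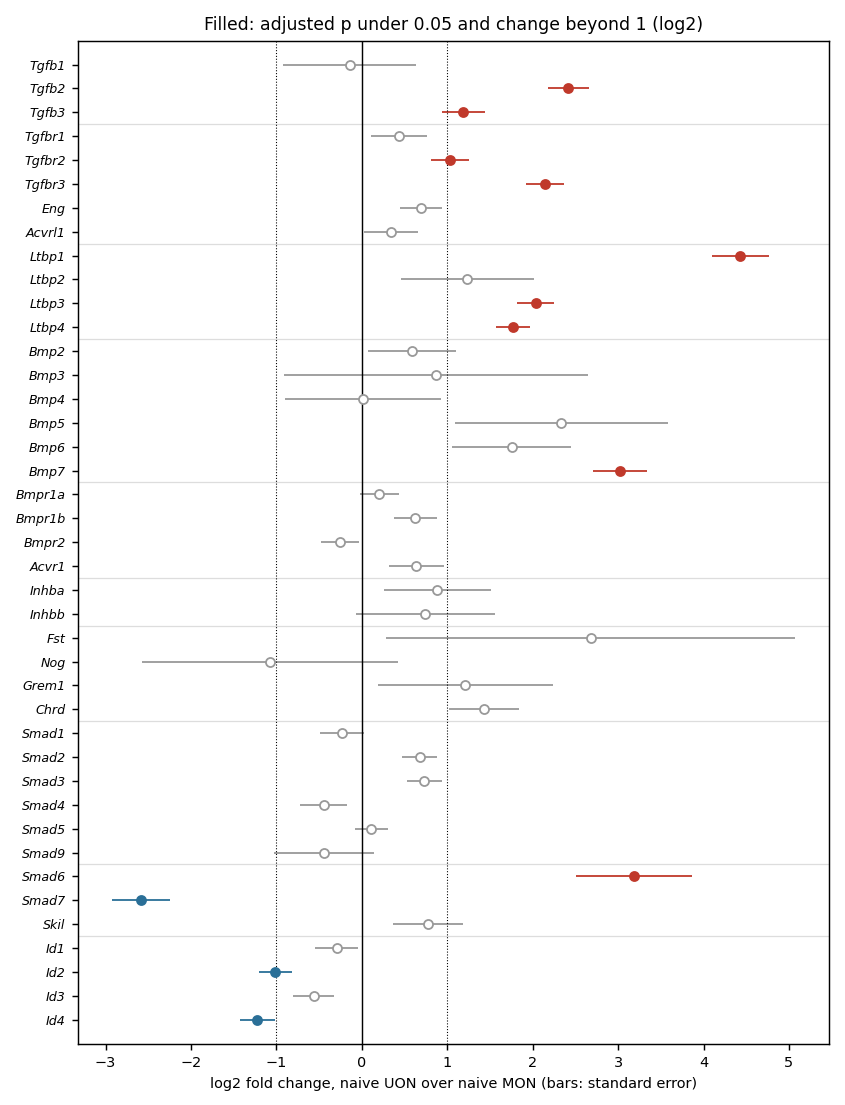
Log2 fold change of naïve UON over naïve MON for the 41 members, with standard errors derived from the edgeR test as bars and dotted lines at -1 and 1. Filled points are called, red for higher in UON and blue for lower. Among the called genes Ltbp1, Ltbp3, Ltbp4, Tgfb2, Tgfb3 and Bmp7 lie to the right, and Smad7, Id2 and Id4 to the left, opposite to Smad6.

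Markers of other cells moved with this comparison. In the naïve pools fibroblast markers were at 2396 and 2630 CPM in UON and 490 and 474 in MON, oligodendrocyte markers at 28720 and 21910 against 164500 and 122300, and astrocyte markers at 23490 and 27610 against 18000 and 12810. Markers of pericytes and smooth muscle (6 genes) were at 198 and 265 CPM in UON and 111 and 95.7 in MON. Endothelial markers were closer, at 198 and 307 CPM against 206 and 159. None of the markers of these lists was at 0 in both pools of either region, and the part of these cells in the differences was not tested. The calls of Tgfb2, Tgfbr3, Ltbp1, Ltbp3, Ltbp4, Bmp7 and Smad7 held without each of the 6 naïve libraries in turn. Those of Tgfb3 and Smad6 were lost without the male UON pool (adjusted p = 0.283 and 0.166) or the male MON pool (0.0951 and 0.134), that of Id4 without either UON pool (0.0687 without the female pool and 0.0507 without the male), and those of Tgfbr2 and Id2 in 3 of the 6 fits.

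Both nerve regions held more of most members than retina. Higher in UON than in retina were 23 of 41 members, where 18.2% of all genes were higher, 13.5% lower and 31.7% called in all, and no member was called lower. In MON 22 of 41 members were higher and none lower, where 16.7% of all genes were higher, 10.9% lower and 27.6% called. The count of 0 lower members was from edgeR; by DESeq2 0 were lower in UON and Bmp5 and Inhba were lower in MON. The median log2 difference over retina was 2.34 for UON and 1.71 for MON. All 3 TGFβ ligands, all 5 TGFβ receptors and all 4 ID genes were called in both comparisons.

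Tgfbr2 gave a steep step, from 2.19 and 2.74 CPM in the naïve retina pools to 55.4 and 49.8 in MON and 119 and 102 in UON. Its log2 difference over retina was 4.41 (SE 0.26, adjusted p = 4.3e-05) in MON and 5.45 (SE 0.27, adjusted p = 2.6e-05) in UON. Ltbp1 was at 5.92 and 3.29 CPM in retina, 163-fold lower than in UON (log2 7.35, SE 0.39, adjusted p = 2.8e-05). Id3 was at 39.7 and 32.2 CPM in retina, with log2 3.26 (SE 0.27) in UON and 3.82 (SE 0.27) in MON over it. Tgfb1 was called (log2 4.29 in UON and 4.44 in MON) on counts of 3 and 7 in the retina pools. Its calls were lost without the female retina pool (adjusted p = 0.0581 against UON and 0.0533 against MON), and against MON also without the male MON pool (0.0557). Of the other calls, that of Acvr1 in UON was lost in 4 of the 6 fits, those of Tgfbr1 and Chrd in MON in 2 each, and those of Bmp6 and Smad1 in MON in 1 each.

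A few members ran the other way or level. Bmp3, a BMP that does not activate SMADs, was at 10.1 and 10.7 CPM in retina and at most 0.781 in the naïve nerve pools, yet did not pass with edgeR (adjusted p = 0.0679 against UON and 0.0579 against MON). Bmpr1a was at 81.5 and 87.6 CPM in retina and 41.6 to 59.2 in the nerve, a change under the limit in both comparisons. Bmpr2 and Smad4 had log2 differences between -0.70 and 0.19 in the comparisons with retina and were not called. Summed photoreceptor markers were at 57910 and 57750 CPM in the naïve retina and 18 to 147 in the naïve nerve. The part of this difference in cell makeup was not tested.

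Of 44 other genes of the pathway 37 were tested in naïve tissue. Higher in UON than MON were 8 and none lower, where 4.83% of all genes were higher and 4.80% lower. They were led by the ligand Gdf10 (log2 4.06, adjusted p = 0.00243), Lrrc32, which anchors latent TGFβ at cell surfaces (log2 3.15, adjusted p = 0.0263), and the activin inhibitor Fstl3 (log2 2.61, adjusted p = 0.00195). By DESeq2 12 were called, where it called 1837 of all genes higher and 1838 lower. Of 13 known TGFβ target genes 10 were higher in UON and none lower, led by Tagln (log2 3.92), Col1a2 (log2 3.53) and Acta2 (log2 3.34), and the median of the 13 was 2.27 where all genes had -0.0616. Of the 13, Col1a1, Col1a2, Col3a1 and Acta2 are also among the fibroblast and smooth muscle markers above.

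Over retina, 12 of the 37 other pathway genes were higher and 5 lower in UON, where 18.2% and 13.5% of all genes were, led by Gdf10 (log2 8.88), Nbl1, a BMP antagonist (log2 5.79), and Lrrc32 (log2 5.67). In MON 12 were higher and 7 lower, where 16.7% and 10.9% of all genes were, led by Gdf10 (log2 4.82), Nbl1 (log2 4.65) and the BMP coreceptor Rgma (log2 4.33). Of the 13 targets 11 were higher in UON, led by Col3a1 (log2 10.01), and 9 in MON, again led by Col3a1 (log2 7.85), and none was lower.

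The next comparisons asked how the genes changed after injury, each tissue against its naïve pools. In MON at 3D after crush 2 of 40 members tested were called, both higher, where 4.26% of all genes were called (3.61% higher and 0.655% lower). In MON at 2W after crush 3 of 40 were called, again all higher, where 2.72% were called (2.13% higher and 0.595% lower). These were 5.0% and 7.5% of the members. At an unadjusted p under 0.05 there were 14 of 40 members at 3D (35.0%, against 21.0% of all genes) and 9 of 40 at 2W (22.5%, against 16%). DESeq2 called 9 and 6 members, where over all genes it called 1461 higher and 925 lower at 3D and 1144 and 582 at 2W. The median log2 change of the members was -0.095 at 3D and 0.362 at 2W, where all genes had -0.0049 and 0.0514.

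At 3D the called genes were a matrix gene and an activin gene. Ltbp2, a matrix protein of the same family that does not bind latent TGFβ, was at 4.54 and 2.65 CPM in naïve MON and 21.6 and 28.7 after crush, 7.88-fold higher (log2 2.98, SE 0.48, adjusted p = 0.0206). Inhba, the βA subunit of activin A, was at 0.891 and 1.44 CPM in naïve MON and 4.79 and 17.1 after crush, 8.76-fold higher (log2 3.13, SE 0.59, adjusted p = 0.0326). The pools did not overlap for either gene, and the male crushed pool was the higher for both. At 2W Ltbp2 was at 9.89 and 4.60 CPM and Inhba at 1.76 and 2.21 CPM, still above both naïve pools but not called.

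At 2W the called genes were the 2 signaling receptors of TGFβ and a corepressor. Tgfbr1 was at 40.9 and 28.8 CPM in naïve MON, 54.6 and 59.9 at 3D and 125 and 134 at 2W, 3.85-fold higher at 2W (log2 1.95, SE 0.28, adjusted p = 0.0237). Tgfbr2 was at 55.4 and 49.8 CPM in naïve MON, 98.8 and 85.0 at 3D and 184 and 145 at 2W, 3.19-fold higher at 2W (log2 1.67, SE 0.26, adjusted p = 0.0303). Both receptors were higher in each pool at 3D than in each naïve pool, with log2 changes of 0.81 and 0.89 that did not pass. Skil, whose product represses SMAD-driven transcription and is itself a TGFβ target, was at 17.6 and 8.96 CPM in naïve MON, 33.3 and 50.0 at 3D and 58.1 and 42.2 at 2W, above both naïve pools at each time. Its log2 change was 1.80 (SE 0.39, adjusted p = 0.0501) at 3D and 1.98 (SE 0.39, adjusted p = 0.0470) at 2W. At 3D Skil was called by DESeq2 (adjusted p = 0.00053) and by edgeR with all 12 MON libraries fitted together (adjusted p = 0.0327).

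At 3D 6 members were higher and 8 lower at an unadjusted p under 0.05, where 21.0% of all genes reached it in either direction. The share of all genes by direction is not given here. The 8 lower members did not pass the main test, namely Bmp4, Bmp6, Bmpr1b, Nog, Chrd, Smad9, Smad7 and Id4. Other genes of the BMP branch had higher values, among them Id2 at 154 and 146 CPM against 112 and 110 naïve and Bmp2 at 10.2 and 11.3 against 8.56 and 5.47, and neither was called. Id4 was at 166 and 216 CPM in naïve MON and 40.99 and 15.1 at 3D (log2 -2.65, SE 0.62, adjusted p = 0.0603), and it was called by DESeq2 and by edgeR when all 12 MON libraries were fitted together (adjusted p = 0.0193). Bmpr1b, a BMP type I receptor, was at 61.5 and 34.0 CPM naïve and 25.8 and 6.17 at 3D (log2 -1.60, adjusted p = 0.224), Chrd at 6.51 and 8.18 against 2.80 and 1.25 (log2 -1.82, adjusted p = 0.127), and Bmp6 at 3.52 and 11.96 against 0.993 and 2.17 (log2 -2.09, adjusted p = 0.0667). In each of these the crushed pools lay below both naïve pools. DESeq2 called Bmpr1b, Chrd and Bmp6 lower at 3D (adjusted p = 0.0282, 0.0262 and 0.0062), but not Bmp4 or Smad9. The antagonist Nog had 107 and 17 counts in the naïve MON pools and 0 in both pools at 3D, so no fold is given. DESeq2 called Nog lower at 3D (adjusted p = 0.0046). Smad7 was at 29.2 and 47.0 CPM naïve, 14.0 and 20.4 at 3D and 12.1 and 13.2 at 2W (log2 -1.06 and -1.51, adjusted p = 0.110 and 0.0547), and DESeq2 called it at both times.

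**Figure D3:**
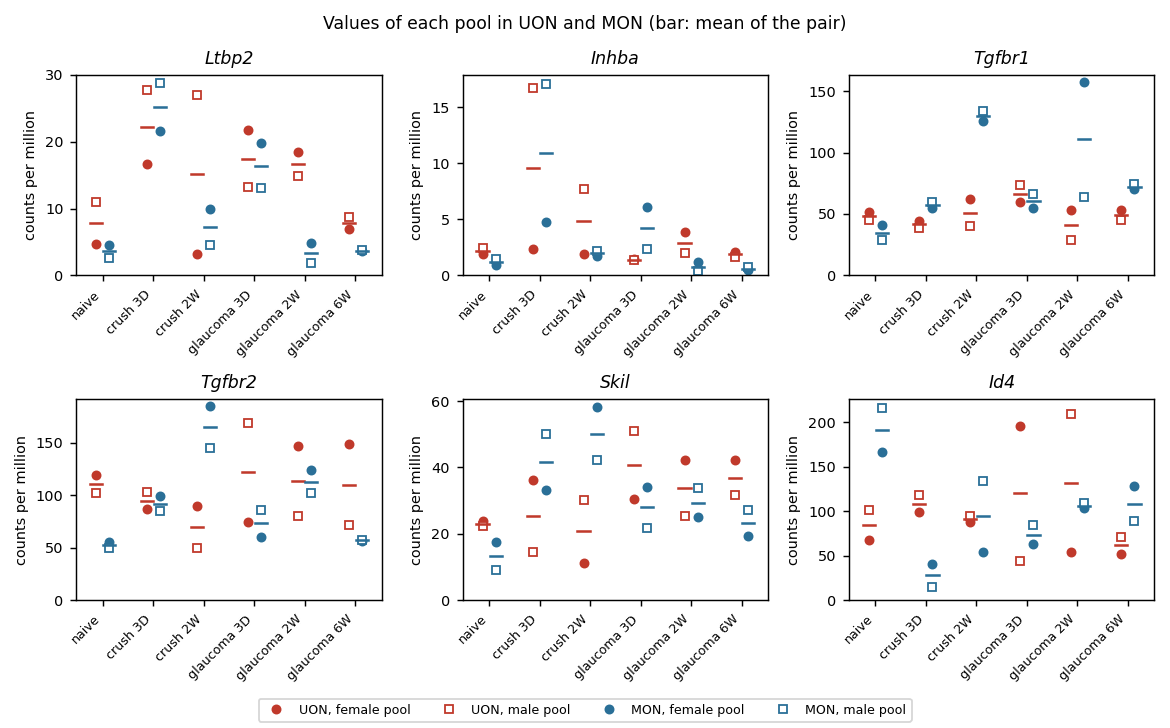
CPM of 6 members in each UON (red) and MON (blue) library by group, with filled circles for female pools, open squares for male pools and a bar at the mean of the pair. In MON, Ltbp2 and Inhba have their highest means at 3D after crush, Tgfbr1, Tgfbr2 and Skil at 2W after crush, and Id4 has its lowest mean at 3D after crush.

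Summed cell markers also changed in MON after crush. Those of microglia and macrophages were at 1366 and 1489 CPM in naïve MON, 3231 and 4082 at 3D and 6959 and 3960 at 2W. Oligodendrocyte markers were at 164500 and 122300 CPM, then 86360 and 72240, then 46660 and 59610. Astrocyte markers were at 18000 and 12810 CPM naïve, 14130 and 7480 at 3D and 14530 and 23950 at 2W, and fibroblast markers at 490 and 474, then 586 and 909, then 1469 and 828. The part of these shifts in the called genes was not tested. The calls of all 5 genes depended on each naïve pool. Without the female or the male naïve MON pool no member was called at either time. The call of Inhba was also lost without the male pool at 3D, where its log2 change was 2.40.

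Some known TGFβ target genes rose in the crushed MON. Of the 13, 6 were higher and none lower at 3D, among them Thbs1, which activates latent TGFβ (log2 8.32, adjusted p = 0.0077), and Timp1, an inhibitor of matrix metalloproteinases (log2 4.43, adjusted p = 0.00737). At 2W 4 of 13 were higher and none lower, among them Thbs1 (log2 4.00) and Timp1 (log2 3.87). The shares of all genes called higher were 3.61% and 2.13%. The median of the 13 was 2.00 and 2.01 on the log2 scale, where all genes had -0.0049 and 0.0514. Of the 33 other pathway genes tested 2 were higher at each time, Gdf15 (log2 4.81) and Nrros (log2 2.21) at 3D and Nrros (log2 2.42) and Bambi (log2 2.34) at 2W. Nrros anchors latent TGFβ on microglia, and Bambi encodes a pseudoreceptor of the family.

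After bead injection no member was called in MON by edgeR, where 0% of all genes were called at any of the 3 times. At an unadjusted p under 0.05 there were 7 of 40 members at 3D (17.5%, against 8.07% of all genes), 6 at 2W (15%, against 8.78%) and 5 at 6W (12.5%, against 4.91%). DESeq2 called Ltbp2 and Id4 at 3D, Tgfbr1, Tgfbr2 and Smad7 at 2W, and none at 6W. Ltbp2 was at 19.7 and 13.1 CPM at 3D against 4.54 and 2.65 naïve (log2 2.17, SE 0.45, edgeR adjusted p = 0.357). Tgfbr1 was at 157 and 64.2 CPM at 2W (log2 1.61, SE 0.37, adjusted p = 0.306), with the female pool well above the male, and Tgfbr2 at 124 and 102 (log2 1.08, SE 0.24, adjusted p = 0.294). Id4 was below both naïve pools at all 3 times, at 62.8 and 84.7, 103 and 109, and 129 and 88.5 CPM. Smad7 was too, at 19.9 and 22.1, 9.65 and 18.4, and 19.9 and 16.4 CPM. The crush and glaucoma comparisons share the naïve MON pools, so a naïve value that is high or low moves both.

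In UON no member was called by edgeR after either injury. All-gene shares were 0% at 3D and 0.0281% at 2W after crush and 0% at each time after bead injection. At an unadjusted p under 0.05 there were 2 of 41 members at 3D (4.88%, against 3.07%) and 4 at 2W after crush (9.76%, against 9.27%). After bead injection there were 3 at 3D (7.32%, against 3.87%), 2 at 2W (against 3.57%) and 2 at 6W (against 2.01%). DESeq2 called 1 member in these 5 comparisons, Smad6 at 6W after bead injection (adjusted p = 0.0045). At that time it called 12 of all genes higher and 22 lower. Smad6 was at 10.5 and 16.3 CPM in naïve UON and 1.93 and 4.41 at 6W (log2 -2.15, SE 0.45), and both pools were below both naïve pools at 3D and 2W as well, at 4.55 and 8.91 and at 5.83 and 5.94 CPM. Ltbp2 was at 16.7 and 27.8 CPM at 3D after crush against 4.75 and 10.99 naïve (log2 1.64, SE 0.62, unadjusted p = 0.0327), and 21.8 and 13.2 at 3D after bead injection. Inhba was high in the male pools after crush, at 16.8 CPM at 3D and 7.72 at 2W, against 2.40 and 1.95 in the female pools and 1.88 and 2.46 naïve.

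In retina no member was called, where 0.0221% and 0.313% of all genes were called at 3D and 2W after crush and 0.00429%, 0% and 0.00858% at 3D, 2W and 6W after bead injection. At an unadjusted p under 0.05 there were 1 of 39 members at each time after crush (2.56%, against 6.34% and 8.99%) and 3, 1 and 0 of 40 after bead injection (against 6.09%, 6.29% and 5.67%), and DESeq2 called none. The 3 at 3D, 7.5% of the members, were ID genes, higher in both pools than in both naïve pools, while the other ID gene, Id4, was at 16 and 11.6 CPM against 15.3 and 17.9. Id3 was at 53.6 and 101 CPM against 39.7 and 32.2 (log2 1.09, SE 0.43, adjusted p = 0.798), Id2 at 34.7 and 42.9 against 21.7 and 21.7 (log2 0.83, adjusted p = 0.652), and Id1 at 15.2 and 20.4 against 9.63 and 8.51 (log2 0.98, adjusted p = 0.798). Summed astrocyte markers in those retina pools were at 1157 and 1548 CPM against 1366 and 1254 naïve, and fibroblast markers at 30.6 and 36.5 against 20.1 and 12.1. Microglia and macrophage markers were at 81.3 and 118 CPM against 37.6 and 33.1, and the part of these cells was not tested. Over all 12 retina libraries Smad5, a BMP SMAD, stayed between 47.9 and 59.4 CPM and Tgfb2 between 63.5 and 85.2, while markers of retinal ganglion cells were at 1085 and 978 CPM in naïve retina and 184 and 166 at 2W after crush.

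**Figure D4:**
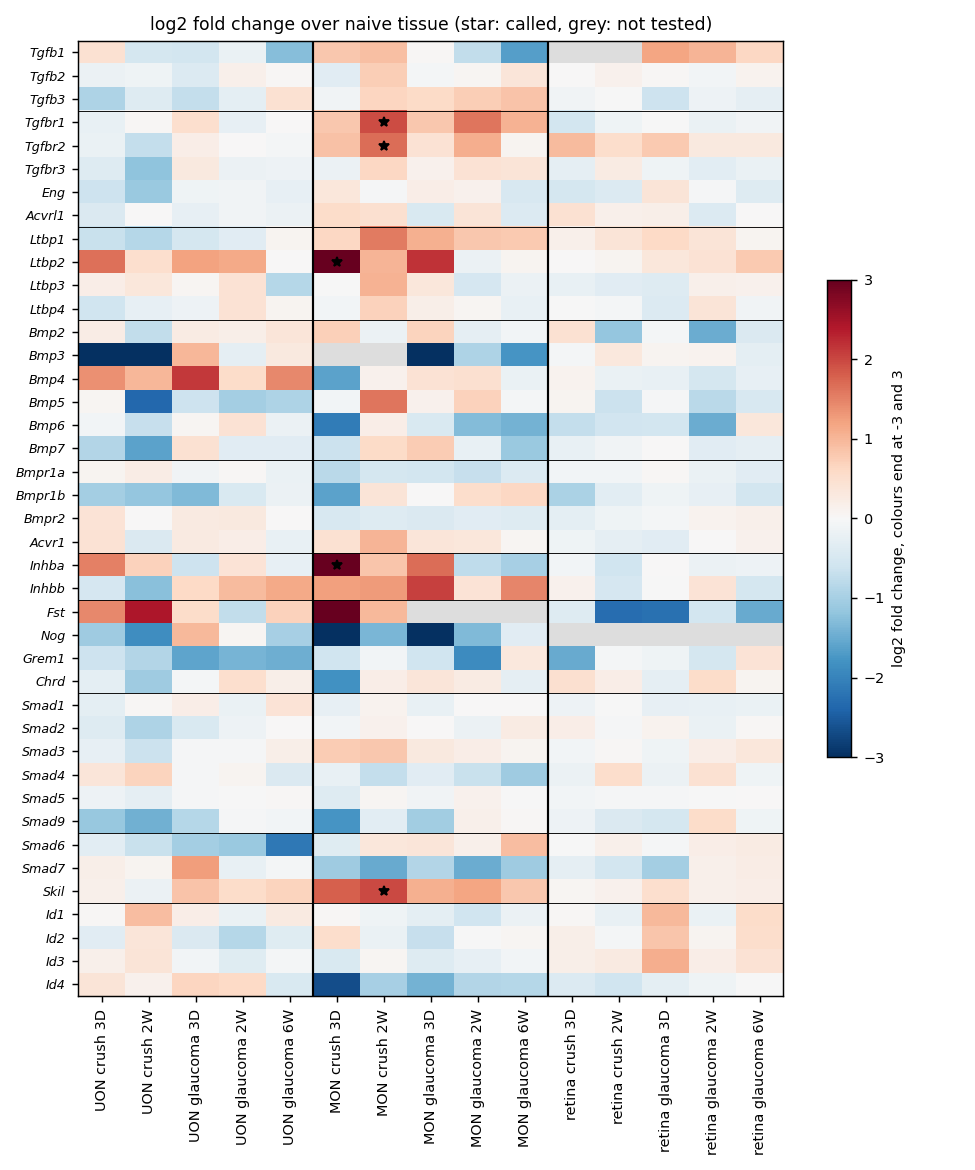
Log2 fold change over naïve tissue of the 41 members (rows, by role) in 15 comparisons (columns), from red (higher after injury) to blue (lower), with colours ending at -3 and 3, stars for calls and grey for genes not tested. The 5 stars are all in MON after crush, and none is in UON or retina. Dark cells of Bmp3, Fst and Nog rest on values near 0.

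Whether MON and UON responded differently was tested by the interaction of region and injury. No member was called by edgeR in the 5 comparisons, where 0.0120% of all genes were called at 3D after crush and 0% in the other 4. At an unadjusted p under 0.05 there were 7 of 41 members at 3D and 10 at 2W after crush (17.1% and 24.4%, against 6.93% and 10.9%) and 5, 3 and 2 after bead injection (against 5.86%, 6.18% and 3.10%). The lowest p-values were those of Id4 at 3D after crush (log2 -3.05, SE 0.70, adjusted p = 0.302) and Tgfbr2 and Tgfbr1 at 2W (log2 2.36 and 1.89, SE 0.42 and 0.39, both adjusted p = 0.146). UON and MON of a group came from the same mice, and a fit with the pool of mice as a block also called 0 members in each of the 5 comparisons. DESeq2 called Id4 at 3D, and Tgfbr1, Tgfbr2 and Ltbp1 at 2W. Id4 in UON was at 68.0 and 102 CPM naïve and 98.6 and 118 at 3D, where MON was at 40.99 and 15.1. Tgfbr2 in UON was at 119 and 102 CPM naïve and 89.98 and 49.4 at 2W, where MON was at 184 and 145. At 2W the edgeR calls depended on which UON pool was left out, and the male pool there stood apart.

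At 3D and 2W crush and glaucoma could be set against each other directly. No member was called in any of the 6 comparisons by edgeR, where the all-gene shares were 0% and 0.0418% in UON, 0.0162% and 0.0485% in MON and 0.0081% and 0.113% in retina. At an unadjusted p under 0.05 there were 2 and 5 of 41 members in UON (against 1.07% and 10.2%), 9 and 4 of 41 in MON (against 10.4% and 7.51%) and 3 and 2 of 40 in retina (against 4.34% and 8.12%). DESeq2 called Id2 and Chrd in MON at 3D and Ltbp3 in MON at 2W. Id2 was at 154 and 146 CPM in MON at 3D after crush and 68.5 and 73.6 after bead injection, on either side of the naïve 112 and 110 (log2 1.12, SE 0.22, adjusted p = 0.332). Ltbp3 was at 63.8 and 80.6 CPM in MON at 2W after crush and 22.5 and 28.6 after bead injection (log2 1.52, SE 0.25, adjusted p = 0.133).

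The members also differed in how widely they varied over the UON libraries, naïve and injured together. Bmp7 ranged from 29.3 to 647 CPM over the 12 UON libraries, a 22.1-fold spread, and both ends were pools of one group, the male and the female pool at 6W after bead injection. The same male pool was lowest for Bmp4 (5.13 CPM, against a highest of 58.8), Bmp6 (4.38 against 48.5) and Tgfbr3 (35.4 against 145). It was the highest UON library for other members, among them Tgfb3 (494 CPM), Ltbp1 (808), Smad1 (98.2) and Smad2 (59.1). That library had the lowest summed fibroblast markers of UON (1469 CPM) and the highest astrocyte markers (29360 CPM). The male pool at 2W after crush held 51.9 CPM of Bmp7 with fibroblast markers at 4196 CPM. The part of these cells in the spread was not tested. Tgfb2 was the steadiest, from 1076 to 1778 CPM, followed by Bmpr1a, Smad5 and Acvrl1. Smad7 was at 4.62 to 9.43 CPM in 11 UON libraries and at 26.6 in the female pool at 3D after bead injection. That pool had the most oligodendrocyte markers of UON (43470 CPM). Id4 there was at 196 CPM, against 44.4 in the male pool of its group. Id4 was highest, at 209 CPM, in the male pool at 2W after bead injection, where these markers were at 16530 CPM. The male pool at 6W after bead injection had 38050 CPM of these markers, with Id4 at 70.6 and Smad7 at 7.23 CPM. The part of oligodendrocytes in these values was not tested. Over the members the median standard deviation of log2 values was 0.618 in UON, 0.60 in MON and 0.343 in retina. It was taken over naïve and injured libraries, without Bmp3 in MON and without Tgfb1, Fst and Nog in retina, whose counts were too low.

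**Figure D5:**
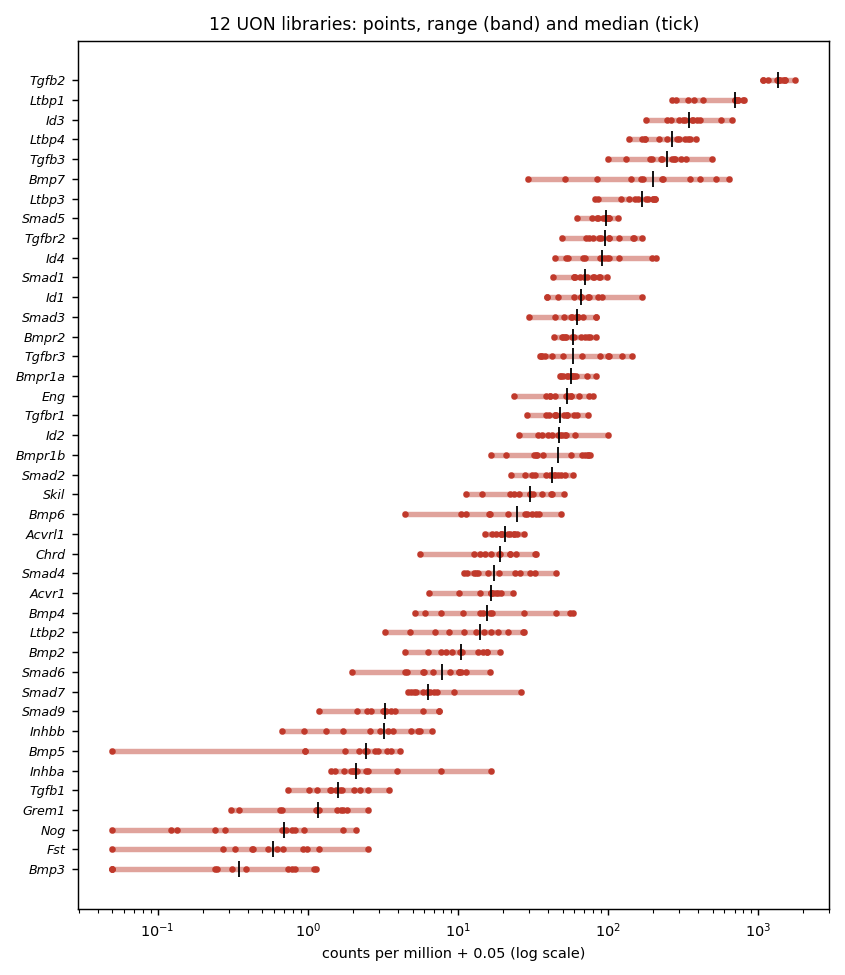
Values of the members in the 12 UON libraries in CPM plus 0.05 on a log axis, ordered by their median, with a point for each library, the range as a band and the median as a tick. Tgfb2 at the top is narrow, while Bmp7 spans from 29.3 to 647 CPM.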

How the data were processed

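RNA-seq libraries of UON, MON and retina were made with an ultra-low-input kit and sequenced as paired ends. The authors aligned reads with HISAT2 2.2.1 to GRCm38 and quantified them with StringTie 1.3.0. The deposited gene table holds estimated counts, derived by the authors from StringTie coverage, and the deposited FPKM values per library are those of StringTie, with 0 in place of 15 values below it. Whether counting used strand, and which read length entered the conversion, is not given in the sources used here, so antisense reads cannot be told apart.

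Estimated counts were rounded and tested with edgeR 4.0.16 (R 4.3.3, limma 3.58.1), using TMM scaling, the filterByExpr filter (min.count 10, min.total.count 15), quasi-likelihood tests with pool sex as a term, and Benjamini-Hochberg adjustment over all genes tested. The limits for a call were 0.05 for the adjusted p and 1 for the size of the log2 change. Each SE was derived as the size of the edgeR log2 change over the square root of its F value. CPM used TMM factors over all 36 libraries. Alternatives were DESeq2 1.42.0, other scaling, no filter, no sex term, fits over more libraries and leaving out each pool. The tests were tested on simulated data. Totals were 16.2 M to 78.1 M counts, and n = 2 limits the precision. The members and lists were chosen with earlier results of these data known. Any of the 41 members could be named, with full values for those called between naïve UON and MON or after injury; of the wider lists at most the 3 called genes with the largest change per direction and comparison were named. Near-threshold members described with values were chosen after these were seen. Some called genes of the wider lists are not reported here by name. The transcript table was not used. Tables and figures used Python 3.11.15, pandas 2.3.3 and matplotlib 3.10.9.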

Additional observations from a re-analysis of the deposited data

How the results depend on the processing

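With 2 pools per group, calls after injury depended on the fit, and the cause was not tested. By DESeq2 1 member was called in UON at 6W after bead injection, 9 and 6 in MON at 3D and 2W after crush, 2 and 3 in MON at 3D and 2W after bead injection, 1 and 3 in the difference of MON and UON responses at 3D and 2W after crush, and 2 and 1 between crush and glaucoma in MON at 3D and 2W. Over all genes DESeq2 called 343 higher and 102 lower in MON at 3D after bead injection, and 372 and 137 at 2W. For the difference of responses after crush it called 177 and 117 at 3D, and 398 and 226 at 2W. Between crush and glaucoma in MON it called 286 and 287 at 3D, and 165 and 203 at 2W. Without a filter on low counts there were 7 and 5 in MON after crush, 2 and 5 in the difference of responses, and 3 and 1 between crush and glaucoma in MON. Without the sex term, that is with no replicate block, 5 were called in MON at 3D after crush, and with all 12 MON libraries in 1 fit 4 at 3D and 5 at 2W. With all 36 libraries in 1 fit there were 8 members for UON over MON, without Tgfb3, Tgfbr2, Id2 and Id4, 25 for UON over retina and 21 for MON over retina, without Bmp7, and DESeq2 gave 13, without Id2, then 25 and 26. Over all genes DESeq2 called 1837 higher and 1838 lower for UON over MON. Over retina it called 4819 and 4151 for UON, and 4377 and 3430 for MON. Counts over all genes are not given here for settings other than the main edgeR fits and DESeq2. Leaving out 1 pool at a time gave 8 to 14 members for UON over MON, 23 to 25 for UON over retina, 20 to 26 for MON over retina, 0 to 10 and 0 to 7 for MON at 3D and 2W after crush, 0 to 1 and 0 to 6 for the difference of responses at 3D and 2W after crush, 0 to 1 for that at 3D after bead injection, 0 to 2 between crush and glaucoma in UON at 2W and 0 to 1 in MON at 3D. No member called by edgeR between naïve tissues or in MON after crush changed its direction in that comparison under the settings run for it. That statement does not cover members that edgeR did not call. The naïve MON pools held 78.1 M and 17.8 M counts.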
